A study of Mus musculus with 8 samples.

Results

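The genes described here encode 7 subunits of the variant Polycomb repressive complex PRC1.6 (*Mga*, *Max*, *E2f6*, *Pcgf6*, *L3mbtl2*, *Ring1* and *Rnf2*) and the 3 core subunits of PRC2 (*Ezh2*, *Eed* and *Suz12*). They were taken by gene symbol, and all 10 were among the 25239 symbols counted in each library. RNA-Seq had been carried out on whole fetal ovaries at E14.5 (embryonic day) from C57BL/6 mice, with 4 control and 4 *Bmpr1a*-cKO libraries, to compare ovaries whose germ cells can and cannot receive BMP signals through the receptor BMPR1A. Control embryos were *Bmpr1a* fl/fl and mutant embryos were *Bmpr1a* fl/fl;Oct4-Cre Cre/WT, in which a tamoxifen-inducible Cre expressed from Oct4 deletes the receptor gene in germ cells and leaves it in the somatic cells. All dams had been given 4-hydroxytamoxifen (1 mg) with progesterone (0.5 mg) on the same 3 occasions (9.5, then 10.5, then 11.5 days after mating), so that control embryos had been exposed to the same drugs. Each library was a pool of the ovaries of 2 embryos, and the 8 embryos of each genotype were littermates drawn from 6 litters, the litter of each library not being given.

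Polycomb complexes keep genes silent by modifying histones. PRC1.6 is brought to DNA by the pairs MGA-MAX and E2F6-DP, which bind E-box and E2F motifs, and is known for holding germline and meiotic genes silent in embryonic stem cells and in germ cells that have not yet entered meiosis. PRC2 methylates histone tails at the genes it represses and restrains the meiotic programme in primordial germ cells.

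The depth was 10622684 to 15365052 counts per control library and 8562961 to 14887102 per *Bmpr1a*-cKO library, and *Rn45s*, the pre-ribosomal RNA, took 13.1 to 16.7% of the counts of any library. *Bmpr1a* itself, in CPM (counts relative to the TMM-scaled library total), read 199, 237, 220 and 216 in control libraries 1 to 4, and 185, 195, 190 and 209 in mutant libraries 1 to 4. The ranges overlapped and the log2 fold change (Log2FC, *Bmpr1a*-cKO over control) was -0.16 ± 0.064 (SE; FDR = 0.0692 by edgeR), which alone is a weak check of the labels, since the counts cover the whole gene and the somatic cells kept it. Genes known to be induced by BMP signals were lower without overlap, with *Msx1* at 58.8 to 75.8 CPM in control and 26.8 to 31.2 CPM in mutant libraries, *Msx2* at 15.8 to 19.2 and 4.02 to 5.76, and *Zglp1* at 5.24 to 9.37 and 1.78 to 3.34 (FDR = 0.000726 for *Zglp1* and lower for the other two, by edgeR). *Bmpr1a*-cKO library 1 stood apart from the other libraries of its genotype. It had the fewest counts, its 9 germ cell markers summed to 740 CPM against 991 to 1149 CPM in the other *Bmpr1a*-cKO libraries, and its 7 pregranulosa markers summed to 738 CPM against 588 to 646 CPM. It was also the lowest *Bmpr1a*-cKO library for 9 of the 10 PRC1.6 and PRC2 genes, and the part of the makeup of this library in that order was not tested. In a whole organ, fewer cells of a type and less RNA per cell cannot be told apart.

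All 10 genes passed the filter on low counts, as 14249 genes did. In *Bmpr1a*-cKO ovaries 4 of them were higher (*Suz12*, *Ezh2*, *Eed* and *Pcgf6*), 1 was lower (*Ring1*) and 5 did not pass the test (*Mga*, *Max*, *E2f6*, *L3mbtl2* and *Rnf2*), at an FDR below 0.05 in edgeR. The 3 PRC2 core genes rose, and the 7 PRC1.6 genes divided into 1 that rose, 1 that fell and 5 that passed in neither direction. Of all genes tested, 17.3% were higher (2461 genes) and 12.5% lower (1781 genes). None of the 10 changed by more than 0.5 on the log2 scale, the size that, with an FDR below 0.05, makes a differentially expressed gene (DEG) here, where 10.2% of all genes were DEGs, and the count was also 0 at an unadjusted p below 0.05 and in limma-voom and DESeq2. The median Log2FC was 0.15 over the 10 genes, 0.31 over the PRC2 core and 0.018 over the PRC1.6 genes, beside -0.0042 over all genes tested. All *Bmpr1a*-cKO libraries lay above all control libraries for *Suz12* alone among the 10 genes and below them for *Ring1* alone, where 16.1% and 11.7% of all genes did so.

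These calls depended on the scaling of the libraries. In place of TMM, each library was also scaled to 7 germ cell genes (*Ddx4*, *Dnd1*, *Piwil2*, *Tdrd1*, *Tdrd5*, *Tdrd9* and *Rnf17*). Under TMM, 2 of these were higher and 1 lower. With this scaling the median of all genes moved to -0.13, and of the 14249 genes 494 were higher and 714 lower. Of the 10 genes, 0 passed in edgeR, with 1 at an unadjusted p below 0.05 (*Ring1*, FDR 0.23). The medians of both groups moved down with that of all genes, from 0.31 to 0.16 for the PRC2 core and from 0.018 to -0.11 for the PRC1.6 genes. Under germ cell gene scaling the Log2FC was 0.33 for *Suz12*, 0.23 for *Pcgf6*, 0.16 for *Ezh2*, 0.15 for *Eed* and -0.39 for *Ring1*. The 7 scaling genes summed to 352 to 477 CPM in control and 333 to 491 CPM in *Bmpr1a*-cKO libraries under TMM. The part of this spread in the lost calls was not tested. The split over all genes was 2088 higher and 2201 lower with upper-quartile scaling and 1871 higher and 2466 lower with library size alone, and the same 5 of the 10 genes passed under both.

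**Figure D1:**
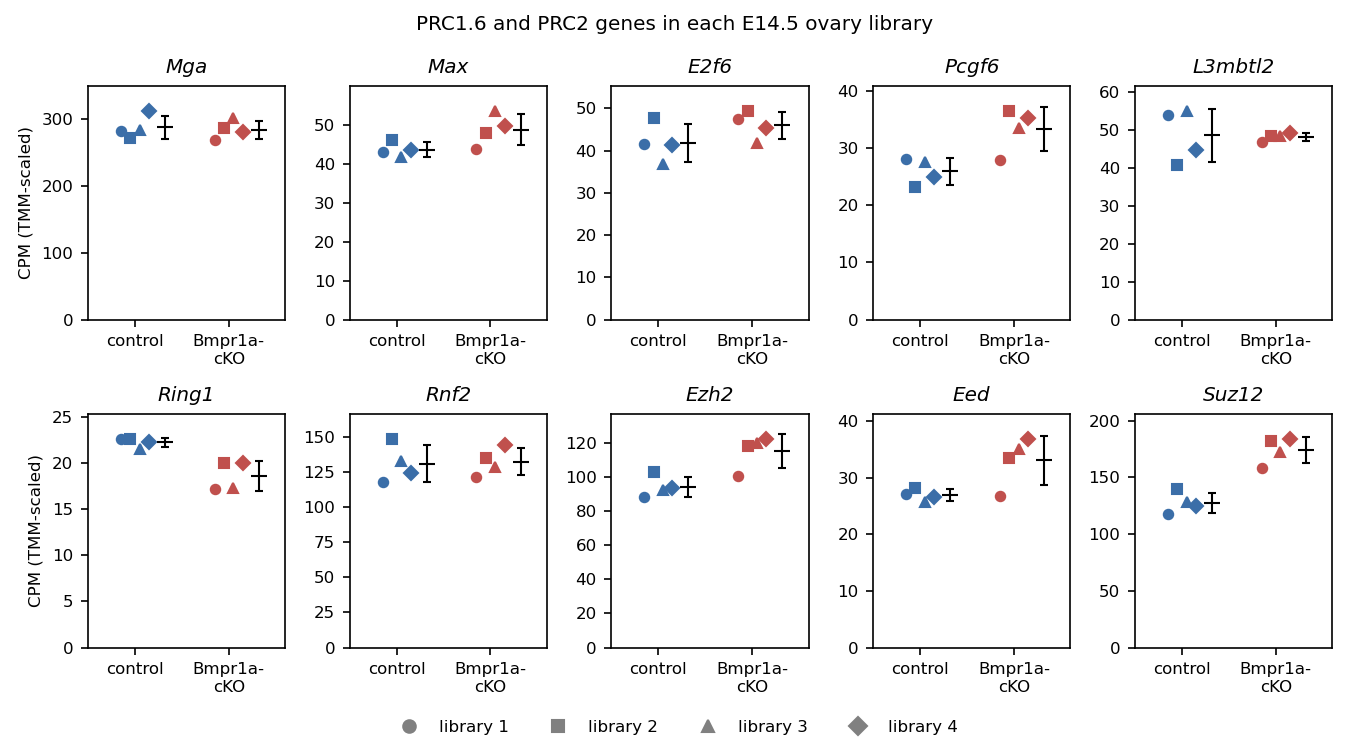
Expression of the 7 PRC1.6 genes and the 3 PRC2 core genes in each library, in CPM scaled by TMM, with the axis from 0 in each panel. Symbols are the 4 libraries of a genotype and the bar is the mean with the SD; *Suz12* is the gene whose *Bmpr1a*-cKO libraries (158 to 184 CPM) all lie above the control libraries (118 to 139 CPM), and *Ring1* the gene whose *Bmpr1a*-cKO libraries all lie below them.

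Among the PRC2 core genes, *Suz12* (chr11:79993106-80034123 of mm10, plus strand), whose product joins the catalytic subunit to the rest of the complex, changed most. Control libraries 1 to 4 gave 118, 139, 128 and 124 CPM, whereas mutant libraries 1 to 4 gave 158, 182, 173 and 184 CPM. Every *Bmpr1a*-cKO library exceeded every control library. The mean rose from 127 ± 9.06 to 174 ± 11.9 CPM (SD, n = 4 each), and the Log2FC was 0.45 ± 0.067 (SE; FDR = 0.00014 by edgeR). With any 1 library left out its Log2FC was 0.42 to 0.50.

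*Ezh2* (chr6:47530139-47595341, minus strand) encodes the methyltransferase of PRC2. Its expression was 88.4, 103, 92.3 and 93.2 CPM in control libraries 1 to 4, with mutant libraries 1 to 4 at 101, 118, 120 and 122 CPM. *Bmpr1a*-cKO libraries 2 to 4 were above all control libraries, whereas library 1 fell just short of control library 2. The control mean of 94.1 ± 6.00 CPM compared with a mutant mean of 115 ± 9.92 CPM (SD, n = 4 for both), with a Log2FC of 0.29 ± 0.071 (SE; FDR = 0.00545 by edgeR).

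*Eed* (chr7:89954654-89980983, minus strand), whose product reads the mark that PRC2 lays down, gave 27.2, 28.2, 25.7 and 26.7 CPM in control libraries 1 to 4, against 26.8, 33.5, 35.1 and 36.9 CPM in the mutant libraries. Library 1 of the *Bmpr1a*-cKO group lay within the control range and the other 3 lay above it. The Log2FC was 0.31 ± 0.090 (SE; FDR = 0.019 by edgeR). This call was lost when control library 3 or 4 or *Bmpr1a*-cKO library 2, 3 or 4 was left out (FDR 0.0511 to 0.0837), and it was stronger without *Bmpr1a*-cKO library 1 (Log2FC 0.39, FDR = 0.000794 by edgeR). Per kilobase of exon, *Ezh2* counts were 2.003 ± 0.101 times those of *Eed* in control and 2.01 ± 0.107 times in *Bmpr1a*-cKO ovaries, and 0.547 ± 0.00993 and 0.490 ± 0.0182 times those of *Suz12* (SD, n = 4 each; these ratios were not tested).

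For the 3 core genes, which all rose, the sequence before their start sites is shown, and shared control was not tested. It comes from the RefSeq promoter windows of GRCm38.p6 (250 bases before to 50 after the start). It runs 5′ to 3′ on the strand of the gene, leaving out bases that lie in an exon of a protein-coding gene in GENCODE vM21. Capitals mark the motif TTCCCGC, an E2F type of site, or CACGTG, an E-box. The stretches are chr11:79992856-79993105 for *Suz12*, chr6:47595059-47595183 for *Ezh2* and chr7:89980984-89981226 for *Eed*, the last of which is also exonic in the noncoding gene *E230029C05Rik* on the opposite strand. The *Ezh2* stretch lies before the RefSeq start but within the GENCODE vM21 span of *Ezh2*, which reaches chr6:47595341.
*Suz12*: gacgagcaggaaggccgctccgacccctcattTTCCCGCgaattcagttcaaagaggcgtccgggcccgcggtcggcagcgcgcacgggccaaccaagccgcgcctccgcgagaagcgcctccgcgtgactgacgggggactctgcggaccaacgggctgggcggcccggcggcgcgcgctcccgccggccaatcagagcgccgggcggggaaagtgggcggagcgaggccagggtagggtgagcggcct
*Ezh2*: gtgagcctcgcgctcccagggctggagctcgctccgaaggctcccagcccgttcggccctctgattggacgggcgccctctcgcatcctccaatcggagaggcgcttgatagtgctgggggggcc
*Eed*: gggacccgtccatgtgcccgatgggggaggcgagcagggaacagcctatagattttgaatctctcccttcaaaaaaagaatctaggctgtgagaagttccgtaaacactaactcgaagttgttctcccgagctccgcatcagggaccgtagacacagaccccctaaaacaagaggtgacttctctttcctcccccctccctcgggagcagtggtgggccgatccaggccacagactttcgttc
TTCCCGC and CACGTG were searched on both strands of the 300-base windows. *Suz12* held TTCCCGC on its own strand at -218 to -212 from the start, and *Max* held CACGTG across its start (-3 to 3). Neither set of letters occurred in the windows of the other 8 genes. With 1 of 10 genes for each motif, the share was near that over the 11262 tested genes with a window, of which 9.89% held TTCCCGC and 11.5% held CACGTG.

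Of the genes that give PRC1.6 its identity, *Pcgf6* (chr19:47033617-47050906, minus strand), the PCGF subunit that sets this complex apart from other PRC1 forms, was the 1 that rose. Its 4 control libraries held 28.0, 23.1, 27.5 and 24.9 CPM, and its 4 mutant libraries held 27.9, 36.4, 33.5 and 35.3 CPM. Libraries 2 to 4 of the *Bmpr1a*-cKO group exceeded all control libraries and library 1 lay just under control library 1. The mean went from 25.9 ± 2.31 to 33.3 ± 3.78 CPM (SD, n = 4 each; Log2FC 0.37 ± 0.092, SE; FDR = 0.00692 by edgeR).

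*Ring1* (chr17:34020792-34024680, minus strand) and *Rnf2* (chr1:151458004-151500955, minus strand) encode the alternative ubiquitin ligases that every PRC1 form needs. For *Ring1* the controls were at 22.6, 22.7, 21.5 and 22.3 CPM, while the mutants were at 17.2, 20.1, 17.3 and 19.99 CPM. All *Bmpr1a*-cKO libraries were lower, and the Log2FC was -0.25 ± 0.083 (SE; FDR = 0.0341 by edgeR). The call was lost without control library 1 or 4 or *Bmpr1a*-cKO library 1 or 3 (FDR 0.0623 to 0.102) and in DESeq2 (FDR 0.0505). *Rnf2*, the more abundant ligase gene, was measured at 118 to 149 CPM in control and 121 to 144 CPM in *Bmpr1a*-cKO libraries. These ranges overlapped almost wholly, with a Log2FC of 0.018 (95% interval -0.14 to 0.18; FDR = 0.888 by edgeR), and its sign turned under upper-quartile, library size and germ cell gene scaling.

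The DNA-binding subunits *Mga*, *Max* and *E2f6* did not pass the test. *Mga* (chr2:119897228-119969581, plus strand), the scaffold that carries both a T-box and a helix-loop-helix domain, ranged from 273 to 313 CPM in control and from 269 to 301 CPM in *Bmpr1a*-cKO libraries (Log2FC -0.018, 95% interval -0.15 to 0.11; FDR = 0.857 by edgeR). *Max* (chr12:76937269-76962201, minus strand), its helix-loop-helix partner, had control values of 43.0, 46.1, 41.7 and 43.6 CPM, with mutant values of 43.8, 47.9, 53.5 and 49.7 CPM. The values for *Max* overlapped through *Bmpr1a*-cKO library 1 alone. The Log2FC of *Max* was 0.16 ± 0.072 (SE; 95% interval 0.0078 to 0.32; FDR = 0.108 by edgeR), and without that library it was 0.20 and passed (FDR = 0.0292 by edgeR).

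*E2f6* (chr12:16810963-16839742, plus strand), the E2F protein without an activation domain, ranged from 36.9 to 47.6 CPM in control and from 41.9 to 49.4 CPM in *Bmpr1a*-cKO libraries (Log2FC 0.14, 95% interval -0.037 to 0.31; FDR = 0.231 by edgeR). *L3mbtl2* (chr15:81663889-81688315, plus strand), an MBT-domain protein that compacts chromatin, ranged from 40.7 to 55.1 CPM in control and from 46.9 to 49.2 CPM in *Bmpr1a*-cKO libraries. The *Bmpr1a*-cKO libraries of *L3mbtl2* lay inside the control range (Log2FC -0.0074, 95% interval -0.20 to 0.18; FDR = 0.96 by edgeR). Exons of *L3mbtl2* share 1023 bases with *Chadl* on the opposite strand, and those of *Rnf2*, *Ezh2*, *Eed* and *Suz12* share 158 to 261 bases with a gene on the opposite strand. The libraries were strand-specific, but no source says whether the counts used strand, so how reads of these overlaps were counted is not known. The genes that overlap *Ezh2* and *Suz12* have no row in these counts.

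Compared per kilobase of exon, the levels of the 10 genes in control ovaries ran from 31.8 ± 3.21 CPM per kb for *Rnf2*, through 25.8 ± 1.83 for *Suz12*, 18.8 ± 1.11 for *Mga*, 14.1 ± 0.898 for *Ezh2* and 12.1 ± 0.520 for *Max*, to 5.15 ± 0.459 for *Pcgf6* (SD, n = 4). *L3mbtl2*, *E2f6*, *Eed* and *Ring1* lay between 6.87 and 8.18 CPM per kb, each within the spread of the next. The median of the 13982 tested genes with a known length was 6.13 CPM per kb. In *Bmpr1a*-cKO ovaries *Suz12*, at 35.2 ± 2.40 CPM per kb, had the highest mean, but its libraries overlapped those of *Rnf2* (32.1 ± 2.36). At the other end, *Pcgf6* (6.62 ± 0.753) and *Ring1* (5.74 ± 0.501) stood in the reverse order, also with overlapping libraries.

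Subunits that replace each other were compared as ratios of counts per kilobase within a library, which do not depend on the scaling between libraries. Over 4 ratios, p-values come from the exact permutation test (two-sided, smallest possible p 0.0286) and were adjusted over the 4. *Ezh2* to *Ezh1*, the methyltransferase gene of dividing against that of resting cells, was 1.72, 2.20, 1.80 and 1.74 in the control libraries and 2.30, 2.91, 2.61 and 2.94 in the *Bmpr1a*-cKO libraries. All *Bmpr1a*-cKO ratios were higher, with a log2 difference of 0.53 ± 0.12 (SE; exact permutation p = 0.0286, adjusted p = 0.0571). *Rnf2* to *Ring1* had a mean of 4.62 ± 0.470 in control and 5.59 ± 0.238 in mutant ovaries (SD, n = 4 each), again without overlap (log2 difference 0.28 ± 0.080, SE; exact permutation p = 0.0286, adjusted p = 0.0571). Neither ratio passed 0.05 after adjustment, although each gave the smallest p that this design allows.

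*Pcgf6* to the sum of *Pcgf1*, *Pcgf2*, *Pcgf3*, *Bmi1* and *Pcgf5* was 0.113 ± 0.0145 in control and 0.146 ± 0.0137 in *Bmpr1a*-cKO ovaries (SD, n = 4 each). The libraries overlapped (log2 difference 0.37 ± 0.11, SE; exact permutation p = 0.0571, adjusted p = 0.0762). *Mga* to the summed genes of the other partners of MAX was 0.272 ± 0.0267 and 0.278 ± 0.0132, with overlapping libraries (log2 difference 0.035 ± 0.076, SE; exact permutation p = 0.657, adjusted p = 0.657).

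**Figure D2:**
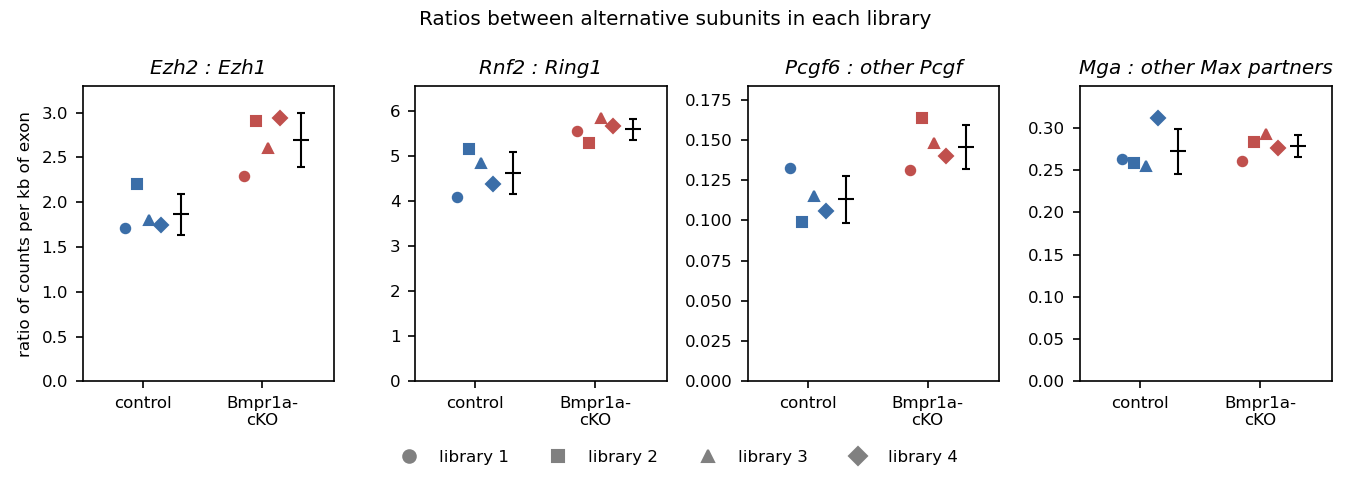
Ratios of counts per kilobase of exon between alternative subunits in each library, with symbols for the 4 libraries of a genotype and bars for the mean with the SD. The *Bmpr1a*-cKO libraries lie above all control libraries for *Ezh2* to *Ezh1* and for *Rnf2* to *Ring1*, and the genotypes overlap for the other 2 ratios.

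Of 9 other PRC1.6 genes, 2 rose and 7 did not pass (median Log2FC 0.12, or -0.0061 with germ cell gene scaling), beside 17.3% higher over all genes. The ones that rose were *Tfdp1* (Log2FC 0.26 ± 0.068, SE; FDR = 0.00978 by edgeR), which encodes the DP partner of E2F proteins, and *Hdac1*, a histone deacetylase gene (0.22 ± 0.063; FDR = 0.0165 by edgeR). The call of *Hdac1* was lost without control library 4 or *Bmpr1a*-cKO library 2, 3 or 4 (FDR 0.0504 to 0.0661). It was also lost with library size scaling (FDR = 0.0621 by edgeR). The Log2FC was 0.25 for *Cbx3*, a heterochromatin protein gene, and 0.12 for *Wdr5*, with FDRs of 0.151 and 0.247 by edgeR. *Cbx3* passed without control library 2 (Log2FC 0.37, FDR = 0.0284 by edgeR), without *Bmpr1a*-cKO library 1 (0.36, FDR = 0.0117 by edgeR) and with the replicate number as a block (FDR = 0.0194 by edgeR). Of 19 genes of other PRC1 forms, 2 rose, 4 fell and 13 did not pass (median Log2FC -0.11) beside 17.3% higher and 12.5% lower over all genes. With germ cell gene scaling 0 of the 19 passed (4 at an unadjusted p below 0.05), beside 494 higher and 714 lower of all 14249 genes. *Cbx7*, a reader of the PRC2 mark, rose from 11.4 ± 1.72 to 16.5 ± 1.19 CPM (SD, n = 4 each; Log2FC 0.55; FDR = 0.00227 by edgeR) and *Usp7*, a deubiquitinase gene, rose by a Log2FC of 0.26. *Scmh1* (Log2FC -0.29), *Cbx8* (-0.35), *Bcorl1* (-0.19) and *Auts2* (-0.19) fell. The call of *Bcorl1* was lost without control library 1, 3 or 4 or *Bmpr1a*-cKO library 2, 3 or 4 (FDR 0.0552 to 0.107). *Cbx7* was no longer a DEG without control library 4 or with library size scaling (Log2FC 0.496).

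Of 11 accessory and alternative PRC2 genes, 6 rose, 2 fell and 3 did not pass (median Log2FC 0.18). Over all genes, 17.3% were higher and 12.5% lower. DEGs made up 3 of the 11, beside 10.2% of all genes. With upper-quartile scaling 6 of the 11 passed (2088 higher and 2201 lower over all genes). With library size scaling 5 of the 11 passed (1871 higher and 2466 lower over all genes). *Mtf2*, which brings PRC2 to CpG islands, rose from 92.3 ± 2.10 to 158 ± 13.3 CPM (SD, n = 4 each; Log2FC 0.78 ± 0.065, SE; FDR = 7.86e-07 by edgeR). *Epop*, found in the same form of PRC2, rose from 9.38 ± 1.26 to 16.9 ± 2.47 CPM (Log2FC 0.86 ± 0.13, SE; FDR = 0.000131 by edgeR). *Phf19*, a relative of *Mtf2*, fell from 67.0 ± 15.1 to 44.5 ± 5.31 CPM (Log2FC -0.58 ± 0.13, SE; FDR = 0.00272 by edgeR). Without control library 3, which stood apart, its Log2FC was -0.42, so that it passed (FDR = 0.00254 by edgeR) but was no longer a DEG. Relatives of 1 family thus moved in opposite directions, with no overlap of libraries for either gene.

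*Aebp2*, a gene of the other main form of PRC2, rose by a Log2FC of 0.40 ± 0.060 (SE; FDR = 0.000141 by edgeR), and *Jarid2* (0.18), *Rbbp7* (0.29) and *Lcor* (0.16) rose by less. *Ezh1* fell from 56.5 ± 3.29 to 47.9 ± 2.67 CPM (SD, n = 4 each; Log2FC -0.25 ± 0.069, SE; FDR = 0.0141 by edgeR), with every *Bmpr1a*-cKO library below every control library. *AU022751*, the symbol used in these counts for *Ezhip*, an inhibitor of PRC2 in gonads, was at 17.0 ± 2.09 and 21.7 ± 4.99 CPM and did not pass (FDR = 0.0644 by edgeR). Of 8 genes that remove Polycomb marks, *Usp16* rose (0.24) and *Kdm6a* fell (-0.20), beside 17.3% higher and 12.5% lower over all genes. The others did not pass, among them *Kdm6b* (-0.18, FDR = 0.0816 by edgeR) and *Asxl3* (-0.22, FDR = 0.0926 by edgeR). These last 2 passed without *Bmpr1a*-cKO library 1 (Log2FC -0.26 and -0.30, FDR = 0.00442 and 0.0122 by edgeR) and without control library 3 (FDR = 0.0475 and 0.045 by edgeR). Both also passed with library size scaling (FDR = 0.0327 and 0.0461 by edgeR). *Kdm6b* passed as well with upper-quartile scaling and with the replicate block (FDR = 0.0452 and 0.0345 by edgeR). The call of *Usp16* was lost without control library 1 or 4 or *Bmpr1a*-cKO library 2, 3 or 4 (FDR 0.0509 to 0.113). It was also lost with upper-quartile and library size scaling (FDR = 0.051 and 0.0876 by edgeR). That of *Kdm6a* was lost without control library 1 or 4 or *Bmpr1a*-cKO library 1 or 3 (FDR 0.067 to 0.0895).

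**Figure D3:**
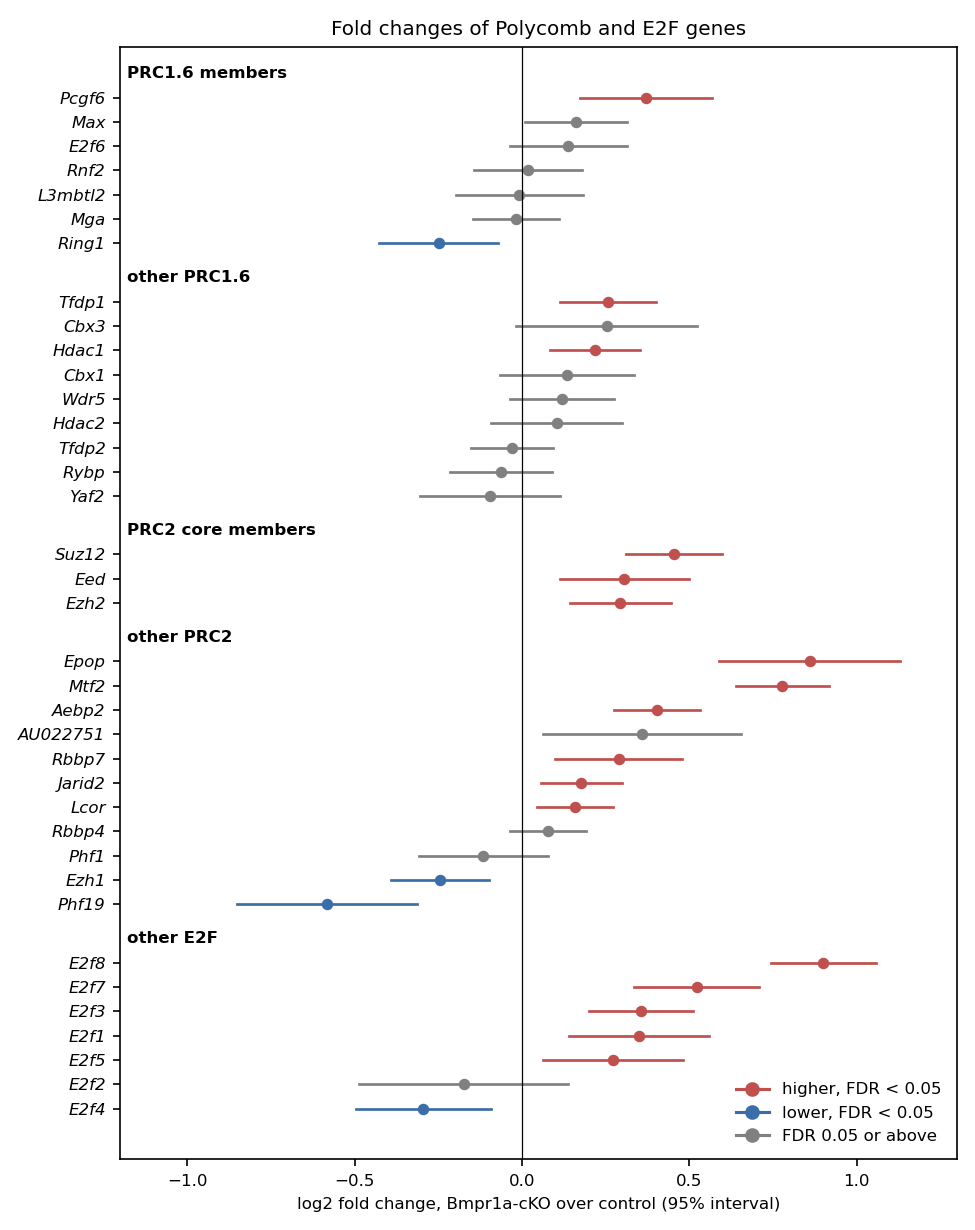
Log2FC of *Bmpr1a*-cKO over control with its 95% interval for the PRC1.6 and PRC2 genes, their other subunits and the other E2F genes, sorted within each group. Red and blue mark genes higher and lower at an FDR below 0.05 and grey the rest; the 3 PRC2 core genes are all to the right of 0, with *Mtf2* (0.78) and *Epop* (0.86) farther out, while the 7 PRC1.6 genes run from -0.25 (*Ring1*) to 0.37 (*Pcgf6*).

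Other factors that share DNA sites with PRC1.6 were also counted. Of 10 other genes of the MAX network, 2 fell and 8 did not pass (median Log2FC -0.095), beside the 12.5% lower over all genes, and 1 passed with germ cell gene scaling. *Mxd4* fell by 0.37 on the log2 scale and *Mycl* by 0.40 (FDR = 0.00146 and 0.00328 by edgeR), and the Log2FC was -0.25 for *Myc* and 0.11 for *Mnt*, which did not pass. *Myc*, at -0.15 without *Bmpr1a*-cKO library 3, was at -0.43 without *Bmpr1a*-cKO library 1 and then passed (FDR = 0.00577 by edgeR). Of 7 other E2F genes, 5 rose, 1 fell (*E2f4*, -0.29) and 1 did not pass (median 0.35), beside 17.3% higher and 12.5% lower over all genes. *E2f8* and *E2f7*, repressors that act late in the cell cycle, rose by a Log2FC of 0.90 ± 0.073 and 0.52 ± 0.088 (SE; FDR = 6.22e-07 and 0.000399 by edgeR), and *E2f3* (0.36) and *E2f1* (0.35), activators of S phase genes (FDR = 0.00187 and 0.0141 by edgeR), also rose. The call of *E2f1* was lost without control library 4 or *Bmpr1a*-cKO library 3 (FDR 0.0596 and 0.0528), and *E2f7* was no longer a DEG without control library 1 or 4 or *Bmpr1a*-cKO library 2. The Log2FC of *E2f7* also fell below the DEG size with upper-quartile (0.49) and library size scaling (0.47). With germ cell gene scaling 1 of the 7 E2F genes passed, where 494 of all 14249 genes were higher and 714 lower.

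Other features of these libraries moved with genotype. Of 23 proliferation genes, 20 rose, 1 fell and 2 did not pass (median Log2FC 0.35), and their summed level was 3032 to 3283 CPM in control and 3952 to 4174 CPM in *Bmpr1a*-cKO libraries. The 9 germ cell markers, of which *Ddx4*, *Dazl* and *Mael* are also targets listed next, summed to 703 to 937 and 740 to 1149 CPM, with 3 higher, 2 lower and 4 that did not pass. All 7 pregranulosa markers fell, and their sum was 802 to 867 and 588 to 738 CPM. Of 7 macrophage markers tested, 5 rose (sum 31.4 to 40.6 and 44.4 to 57.8 CPM). Over all genes tested, 17.3% were higher and 12.5% lower under TMM. With germ cell gene scaling 6 of the 23 proliferation genes, 3 of the 7 pregranulosa markers, 4 of the 9 germ cell markers and 1 of the 7 macrophage markers passed. Over all 14249 genes that scaling gave 494 higher and 714 lower. All 7 scaling genes are among the 9 germ cell markers, so the count of germ cell markers is not independent of that scaling. No marker of these 4 lists was at 0. Their part in the changes of the PRC1.6 and PRC2 genes was not tested.

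The other cell types gave fewer calls. Of 5 Sertoli markers, 1 fell (sum 13.96 to 16.9 and 12.6 to 13.1 CPM), as did 1 of 4 steroidogenic markers (42.2 to 48.4 and 25.0 to 43.6 CPM) and 1 of 5 mesonephros markers (130 to 160 and 101 to 121 CPM). The 6 stroma markers (2726 to 3524 and 2621 to 3273 CPM) and the 6 endothelium markers (285 to 335 and 266 to 310 CPM) gave 0 calls in edgeR, limma-voom and DESeq2, with 0 at an unadjusted p below 0.05. With library size scaling in edgeR, 4 endothelium markers and 1 stroma marker had an unadjusted p below 0.05, again with 0 calls. With upper-quartile scaling 2 endothelium markers did, also with 0 calls. Of 6 erythroid markers, the 2 tested did not pass (29.9 to 66.3 and 32.5 to 57.3 CPM) and the 4 globin genes were listed at 0 in every library.

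Finally, a list of 18 germline genes described as targets of E2F6 or PRC1.6 was examined. The list was written with earlier results of these data known, so the counts below describe the listed genes only. Whether PRC1.6 silences each of them in these ovaries was not tested. Of these 18 genes, 2 rose, 8 fell and 8 did not pass (median Log2FC -0.36). Over all genes, 17.3% were higher and 12.5% lower. DEGs made up 9 of the 18, beside 10.2% of all genes. With germ cell gene scaling 11 of the 18 passed, beside 494 higher and 714 lower of all 14249 genes. *Ddx4*, which is listed here, is also 1 of the 7 scaling genes. *Smc1b*, a meiotic cohesin gene, had control values of 311, 303, 360 and 341 CPM, and mutant values of 107, 146, 172 and 209 CPM. No library of *Smc1b* overlapped between the genotypes (Log2FC -1.05 ± 0.14, SE; FDR = 5.59e-05 by edgeR). *Stag3*, another meiotic cohesin gene, fell from 237 ± 34.1 to 136 ± 21.7 CPM (SD, n = 4 each; Log2FC -0.80; FDR = 8.79e-05 by edgeR) and *Tex101*, a germ cell surface protein gene, from 42.7 ± 7.93 to 12.7 ± 5.28 CPM (Log2FC -1.72; FDR = 2.09e-05 by edgeR).

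*Sycp3* (-1.36), *Majin* (-1.40), *Taf7l* (-1.01), *Mael* (-0.80) and *Sycp1* (-0.47) also fell. *Tuba3b*, a testis tubulin gene, rose from 12.8 ± 1.09 to 40.4 ± 7.29 CPM (SD, n = 4 each; Log2FC 1.67 ± 0.12, SE; FDR = 1.82e-07 by edgeR), but it is nearly identical to *Tuba3a* (Log2FC 0.071, FDR = 0.705 by edgeR) and the division of reads between the paralogues is uncertain. *Dazl* rose by a Log2FC of 0.63 (FDR = 0.00101 by edgeR). The germline genes did not share a direction. *Bmpr1a*-cKO library 1 had the lowest level of its genotype for 18 of the 18, and library 4 had the highest for 17 of the 18. The summed germ cell markers were also lowest of that genotype in library 1 (740 CPM) and highest in library 4 (1149 CPM). The part of germ cell content in the order of the 18 genes was not tested.

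Promoters of the listed germline genes are shown for 4 that fell and for *Hormad1*, which did not pass, as 60-base stretches around the first motif, with capitals as before (GCGGGAA is TTCCCGC read on the other strand). They lie at chr15:85131972-85132031 (*Smc1b*), chr10:88459414-88459473 (*Sycp3*), chrX:134476506-134476565 (*Taf7l*), chr1:166238934-166238993 (*Mael*) and chr3:95559556-95559615 (*Hormad1*) of GRCm38.p6, outside annotated coding-gene exons.
*Smc1b*: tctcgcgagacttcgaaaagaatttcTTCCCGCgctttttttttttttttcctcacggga
*Sycp3*: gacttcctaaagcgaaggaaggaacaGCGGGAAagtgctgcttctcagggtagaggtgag
*Taf7l*: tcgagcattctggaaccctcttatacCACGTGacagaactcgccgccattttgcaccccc
*Mael*: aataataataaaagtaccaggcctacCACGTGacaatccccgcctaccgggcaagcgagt
*Hormad1*: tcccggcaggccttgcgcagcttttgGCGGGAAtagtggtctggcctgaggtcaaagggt
Of 16 listed germline genes with a window, 8 held TTCCCGC and 9 held CACGTG, 50% and 56.2%, beside 9.89% and 11.5% of the tested genes. The list was drawn from genes described as bound by factors of such motifs, with earlier results of these data known. These shares therefore describe the list. The motifs did not follow 1 direction. TTCCCGC was held by 3 of the 7 genes that fell (*Smc1b*, *Stag3* and *Sycp3*), by 4 of the 7 that did not pass (*Ddx4*, *Hormad1*, *Slc25a31* and *Tuba3a*) and by 1 of the 2 that rose, *Tuba3b*, at -107 to -101. CACGTG was held by 5 of the 7 that fell, 4 of the 7 that did not pass and 0 of the 2 that rose. *Hormad1*, which held both motifs, had a Log2FC of -0.36 (FDR = 0.0604 by edgeR).

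**Figure D4:**
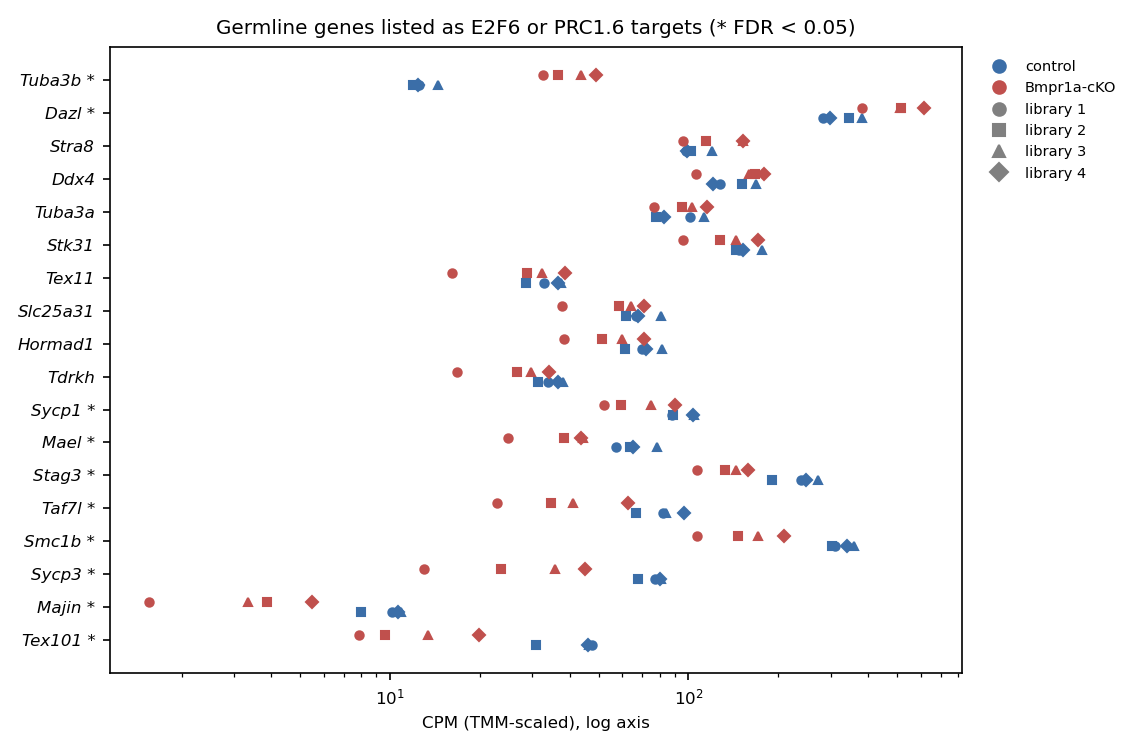
Expression of 18 germline genes listed as E2F6 or PRC1.6 targets in each library, in CPM scaled by TMM on a log axis, sorted by Log2FC. Blue and red are control and *Bmpr1a*-cKO libraries, the symbol gives the library number and an asterisk marks an FDR below 0.05; *Tuba3b* and *Dazl* are shifted to higher values and *Smc1b*, *Stag3*, *Sycp3* and *Tex101* to lower ones without overlap.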

How the data were processed

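Per the study's methods, strand-specific paired-end libraries were made from total RNA, and the authors cleaned the sequences with Trimmomatic 0.39, aligned these to mm10 with STAR 2.5.2 and used STAR again to count reads on genes. The deposited values used here are those raw counts, without normalization, for 25239 symbols per library. The annotation and the strand setting of the counting are not given in the sources used here. The authors also deposited CPM as a signal table of 14244 genes, and its gene set alone served as an alternative filter.

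From the counts, genes were kept by filterByExpr, scaled by TMM and tested for genotype by the edgeR 4.0.16 quasi-likelihood procedure in R 4.3.3 (two-sided; FDR by Benjamini-Hochberg across 14249 genes), and a DEG had an absolute Log2FC above 0.5 with an FDR below 0.05. Ratios used exon lengths of GENCODE vM21 (mm10), and 70 arrangements were permuted (scipy 1.17.1). Alternatives were the likelihood ratio test, limma 3.58.1 voom, DESeq2 1.42.0, other scalings and filters, a fit without *Rn45s*, a replicate block and each library left out. The edgeR fit, its intervals and the permutation test were checked on simulated data.

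The members and lists were chosen with earlier results of these data known. The genes named are the 10 members and, of each related list, the 4 with the lowest p, those in a ratio and those needed to read a count; a few more were named after their values were seen, to complete a count or check the labels. P-values measure the spread between pools, since nothing ties a library to a litter. No pair of libraries agreed within sampling noise (mean chi-square per gene 3.15 to 9.50 between libraries of a genotype). Control libraries had TMM factors from 1.00 to 1.03, mutant libraries from 0.972 to 0.990. Promoter sequences are from RefSeq (GRCm38.p6).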

Additional observations from a re-analysis of the deposited data

Results flagged for a closer look

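In 9 of 84 groups of 4 libraries the highest or lowest library lay far from the other 3, where chance flags about 1 in 20. Among *Bmpr1a*-cKO libraries the lowest value stood apart for *Tfdp1* (147 CPM, the others 166 to 168), *Hdac1* (130 CPM, the others 151 to 154) and *Epop* (13.2 CPM, the others 17.6 to 18.4). Among control libraries the highest value stood apart for *Usp7* (236 CPM, the others 214 to 218) and *Phf19* (89.5 CPM, the others 57.1 to 61.2), and the lowest for *Usp16* (35.8 CPM, the others 40.7 to 40.8) and *Tex101* (30.8 CPM, the others 46.0 to 47.4). Of the ratios, that of *Ezh2* to *Ezh1* was 2.20 in 1 control library and 1.72 to 1.80 in the others, and that of *Mga* to the other partner genes of *Max* was 0.312 in 1 control library and 0.255 to 0.263 in the others.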

How the results depend on the processing

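The number of the 10 genes with an FDR below 0.05 was 5 by edgeR, 4 in DESeq2 and 0 with germ cell gene scaling, and 3 to 5 with 1 library left out, 3 being reached without control library 4 and without *Bmpr1a*-cKO library 3 (*Pcgf6*, *Ezh2* and *Suz12*). *Suz12*, *Ezh2* and *Pcgf6* passed in 19 of 20 alternatives, the exception being germ cell gene scaling. Under that scaling 3 of the 11 other PRC2 genes passed, and over all 14249 genes 494 were higher and 714 lower. Among the other named genes, the calls of *Usp16*, *Bcorl1*, *Hdac1*, *Kdm6a* and *E2f1* held in 12, 13, 14, 15 and 17 of the 20. Whether the replicate numbers pair the libraries was not settled. Correlations of same-numbered libraries were 0.198, 0.161, 0.108 and -0.087, and those of differently numbered libraries ran from -0.198 to 0.182. The fit with the replicate block called 5 of the 10 genes and gained *Cbx3* and *Kdm6b* among the other named genes. Over all genes it called 2715 higher and 2056 lower. Taken as pairs, the ratios could not go below p = 0.125 by exact sign-flip permutation. With 1 library left out the log2 differences, given without a test, were 0.48 to 0.61 for *Ezh2* to *Ezh1*, 0.22 to 0.33 for *Rnf2* to *Ring1*, 0.31 to 0.45 for *Pcgf6* to the other Pcgf genes and 0.006 to 0.10 for *Mga* to the other partner genes.

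The Log2FC of genes that did not pass turned sign in places, and the cause was not tested. With 1 library left out *Mga* ran from -0.052 to 0.016, *L3mbtl2* from -0.089 to 0.049 and *Rnf2* from -0.033 to 0.076. *Mga* was at 0.016 without control library 4 and 0.0062 without *Bmpr1a*-cKO library 1. *L3mbtl2* was at 0.0068 with limma-voom, 0.0054 with the replicate block, 0.047 and 0.049 without control library 1 or 3, and 0.0063 without *Bmpr1a*-cKO library 1. *Rnf2* was at -0.016 with upper-quartile, -0.035 with library size and -0.11 with germ cell gene scaling, -0.029 and -0.015 without control library 1 or 4, and -0.033 without *Bmpr1a*-cKO library 4. With germ cell gene scaling *Wdr5* was at -0.0061 and *Mnt* at -0.022.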
